A study of Mus musculus with 6 samples.

Results

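Expression of the angiopoietin and vascular endothelial growth factor (VEGF) systems was examined in sorted bone marrow haematopoietic stem cells (HSC) with reduced PU.1. The 10 genes were the Tie receptors Tek and Tie1, the angiopoietins Angpt1 and Angpt2, the VEGF receptors Kdr, Flt1 and Flt4, and the ligands Vegfa, Vegfb and Vegfc. They were taken by gene symbol, as every probe set that the array annotation assigns to 1 of these genes and to no other. The symbols matched 19 of the 44991 probe sets, that is 10 of 18186 named genes, and no low-value filter was applied. The gene list was chosen from earlier results on these same 6 arrays, in which Tek stood out by its difference between PU.1 KD and WT. The differences below are therefore a description of these arrays, and no measure independent of that choice was available for a test.

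The PU.1 KD group held 3 arrays (PU.1 KD HSC 1 to 3) from PU.1 knockdown mice and the WT group 3 arrays (WT HSC 1 to 3) from wildtype mice. Each array carried RNA of flow-sorted HSC from a pool of 3 animals, amplified in 2 rounds and hybridised in 1 channel to an Affymetrix Mouse Genome 430 2.0 array. The sources used here state neither strain, age nor sex of the mice, nor the sort markers, nor how PU.1 was reduced. PU.1, encoded by Spi1, is a transcription factor of the ETS family needed for myeloid and B lymphoid development.

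Tek (also called Tie2) and Tie1 are receptor tyrosine kinases of endothelial cells, and Tek is also found on bone marrow stem cells. Angpt1 activates Tek, Angpt2 acts on it as a context-dependent antagonist or weak agonist, and Tie1 modulates Tek signalling. Kdr (VEGFR2) carries most of the mitogenic VEGF signal, Flt1 (VEGFR1) binds Vegfa and Vegfb and also exists as a soluble decoy, and Flt4 (VEGFR3) is the lymphatic receptor for Vegfc. In bone marrow, Angpt1 and Tek have been linked to stem cell quiescence.

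The sequences just upstream of 3 of the receptor genes are shown because Tek, Kdr and Tie1 were the members whose 3 PU.1 KD pools all lay below the WT pools, and because PU.1 and other ETS factors bind a GGAA core. Each run is the 250 bases before the gene start in RefSeq, build GRCm38.p6, written 5′ to 3′ on the gene's own strand. Capitals mark GGAA or its reverse complement TTCC.
Tek (chr4:94739039-94739288, plus strand): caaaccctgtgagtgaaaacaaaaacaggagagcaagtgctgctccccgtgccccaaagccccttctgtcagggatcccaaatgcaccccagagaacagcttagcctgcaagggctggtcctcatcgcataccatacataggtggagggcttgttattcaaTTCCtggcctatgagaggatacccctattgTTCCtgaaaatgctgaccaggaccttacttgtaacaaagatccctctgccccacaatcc
Tie1 (chr4:118489850-118490099, minus strand): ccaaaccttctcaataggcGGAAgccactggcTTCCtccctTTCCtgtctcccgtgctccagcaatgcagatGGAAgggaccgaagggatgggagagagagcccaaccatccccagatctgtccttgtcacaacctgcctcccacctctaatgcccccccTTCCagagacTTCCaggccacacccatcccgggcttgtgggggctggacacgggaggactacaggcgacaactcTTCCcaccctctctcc
Kdr (chr5:75978456-75978705, minus strand): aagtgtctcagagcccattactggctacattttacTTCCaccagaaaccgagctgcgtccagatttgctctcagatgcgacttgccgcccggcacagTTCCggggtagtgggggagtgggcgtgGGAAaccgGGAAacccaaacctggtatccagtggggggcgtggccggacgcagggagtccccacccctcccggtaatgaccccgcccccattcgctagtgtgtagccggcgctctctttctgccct
The Tek window held 2 such cores, beginning 89 and 59 bases before the start. The Tie1 window held 7 and the Kdr window 4. This core was present in 93.4% of all 32851 RefSeq windows of the same length, on either strand. The longer form GAGGAA, which PU.1 favours and which contains GGAA, occurred on either strand in 23.3% of all windows. It was found in the Tie1 window and not in the Tek or Kdr window. Over the family, 8 genes had windows in the table, 9 windows in all, and GAGGAA was present in 3 of them, those of Tie1, Flt1 and 1 of 2 starts of Vegfa. A match describes the letters of the window and not binding.

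The arrays had median intensities between 81.4 and 91.5 units, and no 2 arrays held identical values. Spi1 itself (1418747_at) had deposited intensities of 362, 360 and 119 in PU.1 KD pools 1, 2 and 3, against 1120, 718 and 1053 in WT pools 1, 2 and 3. All PU.1 KD pools lay below all WT pools, with PU.1 KD pool 3 the lowest. WT pool 2 stood apart from the other WT pools in its marker genes. The mean log2 value over 10 of 12 stem cell genes was 9.40, 9.43 and 9.59 in PU.1 KD pools 1, 2 and 3, against 9.35, 10.23 and 9.47 in WT pools 1, 2 and 3. Over 8 neutrophil genes it was 12.35, 11.76 and 11.74 in PU.1 KD pools, against 12.25, 10.45 and 11.59 in WT pools. PU.1 KD pool 2 stood apart from the other PU.1 KD pools in its erythroid and megakaryocyte genes. The erythroid mean, over 5 of 6 genes, was 8.82, 9.90 and 8.71 in PU.1 KD pools, against 9.48, 8.16 and 9.22 in WT pools. The megakaryocyte and platelet mean, over 11 of 12 genes, was 8.72, 6.93 and 8.51, against 9.81, 8.61 and 9.66. All 10 measured stem cell markers, Kit, Cd34, Procr and Hlf among them, were brighter than the median probe set, as were all 8 neutrophil markers. In RNA from many cells, fewer cells that express a gene and less RNA per cell cannot be told apart.

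Intensities below are the deposited values on a linear scale. Log2 values are of intensity plus 16 after quantile normalisation, with mean ± SD over n = 3 pools, and differences are PU.1 KD minus WT on that log2 scale, each with its standard error (SE) from limma. Adding 16 shrinks the differences of dim probe sets. Where a gene had several probe sets, the 1 with the highest mean stands for it. A single probe set served 4 of the genes, 4 genes had 2, Vegfc had 3 and Flt1 had 4.

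Tek (1418788_at) had intensities of 90.6, 98.0 and 59.6 in PU.1 KD pools 1, 2 and 3, against 186, 226 and 163 in WT pools 1, 2 and 3. The groups did not overlap, and the highest PU.1 KD pool was well under the lowest WT pool. PU.1 KD pool 3 was the lowest for both Tek and Spi1, and WT pool 2 was the highest for both Tek and the stem cell mean. Neither match held in the other group. WT pool 2 had the lowest Spi1 of the WT pools, and PU.1 KD pool 3 had the highest stem cell mean of the PU.1 KD pools. The log2 value averaged 6.65 ± 0.36 in PU.1 KD pools and 7.64 ± 0.18 in WT pools. PU.1 KD minus WT was -0.99 (SE 0.21, 95% interval -1.48 to -0.51). The Tek intensity of PU.1 KD pool 3 lay below the median of its array (89.0), where without detection calls a signal cannot be told from background, so no fold is given. Tie1 (1416238_at), the orphan receptor that pairs with Tek, had intensities of 189, 161 and 211 in PU.1 KD pools, against 294, 280 and 216 in WT pools. The groups did not overlap, but PU.1 KD pool 3 and WT pool 3 were almost level. The Tie1 log2 value averaged 7.71 ± 0.18 in PU.1 KD pools and 8.07 ± 0.20 in WT pools. The difference of -0.36 (SE 0.17, 95% interval -0.75 to 0.029) was larger than the SD of either group, but its interval included 0.

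Kdr (1449379_at), the main signalling receptor for Vegfa, had intensities of 105, 82.4 and 89.5 in PU.1 KD pools 1, 2 and 3, against 289, 165 and 195 in WT pools 1, 2 and 3. The PU.1 KD pools were close together and all below the WT pools, among which pool 1 was the highest. The Kdr intensity of PU.1 KD pool 2 lay below the median of its array (85.7), and that of PU.1 KD pool 3 was almost level with its own (89.0). Without detection calls a signal there cannot be told from background, so no fold is given. The log2 value averaged 6.79 ± 0.20 in PU.1 KD pools and 7.78 ± 0.41 in WT pools, a difference of -0.99 (SE 0.23, 95% interval -1.51 to -0.46). This was of the same size as that of Tek, although the order of the pools differed, since WT pool 2 was the highest WT pool for Tek and the lowest for Kdr.

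Flt1 did not separate the groups on any of its 4 probe sets. On 1419300_at the intensities were 71.9, 60.3 and 171 in PU.1 KD pools, against 118, 22.1 and 107 in WT pools. PU.1 KD pool 3 was the highest and WT pool 2 the lowest of all pools. The difference of 0.38 (SE 0.51) was smaller than the SD of either group, and it turned to -0.19 without WT pool 2. The other 3 Flt1 probe sets differed by 0.076 (SE 0.13) on 1454037_a_at, 0.074 (SE 0.28) on 1451756_at and -0.38 (SE 0.18) on 1440926_at. All 4 had means below the median of all probe sets, where adding 16 shrinks differences most. Flt4, the lymphatic receptor, was likewise dim, with intensities of 71.3, 47.1 and 57.9 in PU.1 KD pools, against 77.9, 51.7 and 44.8 in WT pools on 1421442_at. The groups overlapped, and the differences were 0.091 (SE 0.22) and 0.17 (SE 0.16) on its 2 probe sets. The first of these changed sign without PU.1 KD pool 1 (-0.053) or WT pool 3 (-0.050).

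**Figure D1:**
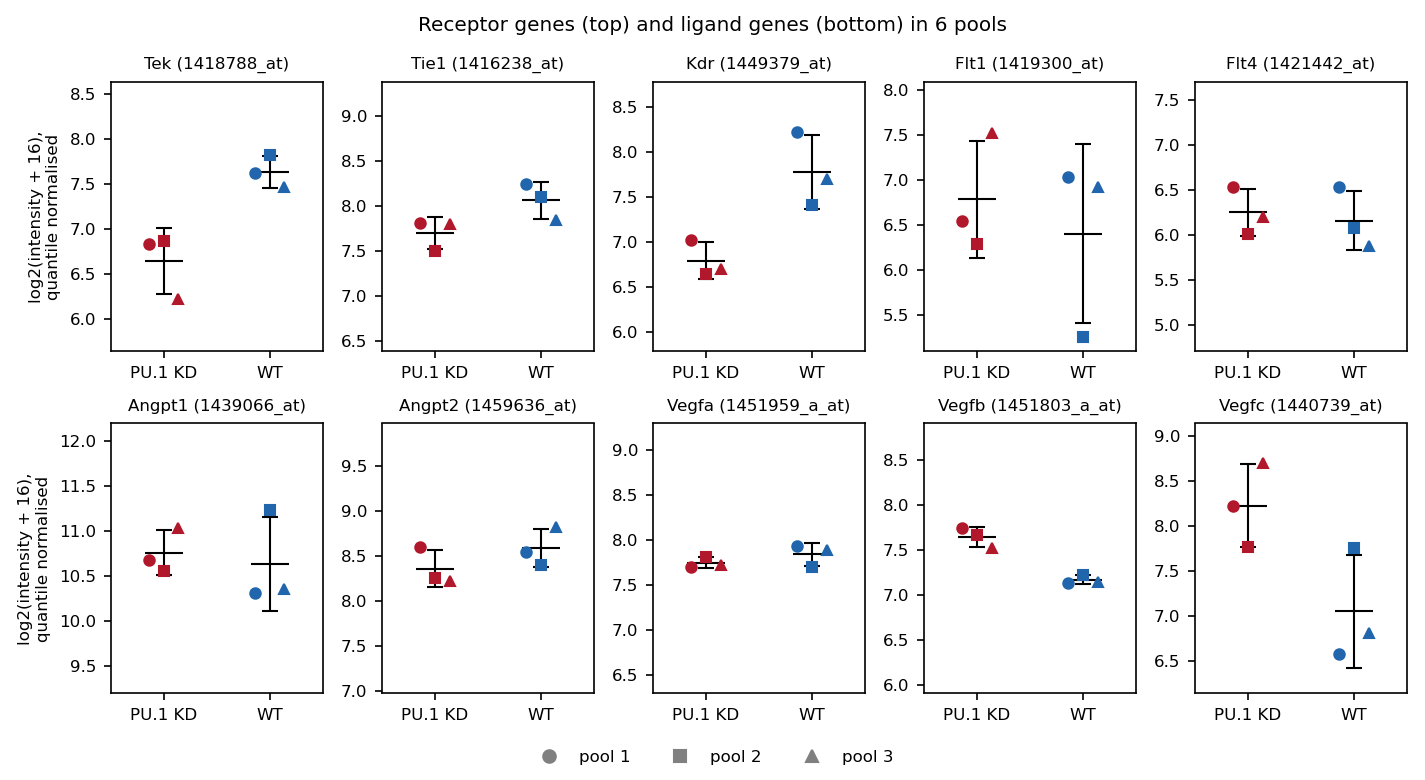
Quantile normalised log2(intensity + 16) of each gene's brightest probe set, receptors in the top row and ligands in the bottom row; each symbol is 1 pool, with PU.1 KD left of WT, and bars are the mean and SD of 3 pools. Each panel spans 3 log2 units around its own mean. PU.1 KD pools lie below WT pools for Tek, Tie1 and Kdr and above them for Vegfb and, narrowly, Vegfc.

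Angpt1, the activating ligand of Tek, had intensities on 1439066_at of 1479, 1516 and 2107 in PU.1 KD pools, against 1270, 2428 and 1265 in WT pools. The highest value was in WT pool 2 and the next in PU.1 KD pool 3, so the groups overlapped, and the spread between WT pools was larger than the difference between groups. The log2 values averaged 10.75 ± 0.25 in PU.1 KD pools and 10.63 ± 0.52 in WT pools, a difference of 0.12 (SE 0.27, 95% interval -0.50 to 0.75). It changed sign without PU.1 KD pool 3 (-0.019), WT pool 1 (-0.035) or WT pool 3 (-0.015), and it was 0.43 without WT pool 2. The dimmer probe set 1421441_at differed by 0.019 (SE 0.25).

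Angpt2, the ligand that can oppose Angpt1, had intensities on 1459636_at of 331, 290 and 288 in PU.1 KD pools, against 364, 345 and 430 in WT pools. The deposited intensities did not overlap, while after normalisation PU.1 KD pool 1 (8.60) lay above WT pools 1 and 2 (8.55 and 8.40). The difference was -0.23 (SE 0.17) on this probe set and -0.11 (SE 0.22) on 1448831_at.

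Vegfa, the ligand of Kdr and Flt1, gave unlike results on its 2 probe sets. On the brighter 1451959_a_at the intensities were 174, 207 and 199 in PU.1 KD pools, against 233, 205 and 222 in WT pools. The groups overlapped and the difference was -0.093 (SE 0.14). On 1420909_at they were 37.6, 29.3 and 83.7 in PU.1 KD pools, against 140, 58.3 and 139 in WT pools. PU.1 KD pools 1 and 2 were the lowest, but PU.1 KD pool 3 lay above WT pool 2. This probe set differed by -0.92 (SE 0.37, 95% interval -1.77 to -0.066) and had a mean below the median of all probe sets. The suffix _a_at marks a probe set that matches several transcripts of a gene, and the sources used here do not say which Vegfa transcripts each probe set reads.

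Vegfb, a ligand of Flt1, had intensities of 178, 183 and 170 in PU.1 KD pools, against 128, 142 and 127 in WT pools (1451803_a_at). The groups did not overlap, and the pools of each group lay closer together than for any other member's brightest probe set except the PU.1 KD pools of Vegfa. The log2 value averaged 7.64 ± 0.11 in PU.1 KD pools and 7.17 ± 0.05 in WT pools, a difference of 0.47 (SE 0.14, 95% interval 0.16 to 0.79), or 1.39-fold on this scale.

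Vegfc, the ligand of Flt4, had intensities on 1440739_at of 254, 198 and 408 in PU.1 KD pools 1, 2 and 3, against 81.2, 215 and 98.6 in WT pools 1, 2 and 3. WT pool 2 stood with the PU.1 KD pools: its deposited intensity was above that of PU.1 KD pool 2, and after normalisation the pair was nearly tied, at 7.76 in PU.1 KD pool 2 and 7.75 in WT pool 2. The log2 value averaged 8.22 ± 0.47 in PU.1 KD pools and 7.05 ± 0.62 in WT pools, a difference of 1.18 (SE 0.35, 95% interval 0.38 to 1.98). The Vegfc intensity of WT pool 1 lay below the median of its array (90.0), so, as for Tek, no fold is given. Probe set 1419417_at followed 1440739_at within 0.056 log2 units on each array and differed by 1.21 (SE 0.33). Both may read the same stretch of the transcript, which the sources used here do not show, so they are not taken as separate evidence. The counts of probe sets given below include both. The third probe set, 1439766_x_at, overlapped between groups and differed by 0.36 (SE 0.44), and its suffix marks probes that can bind other transcripts.

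**Figure D2:**
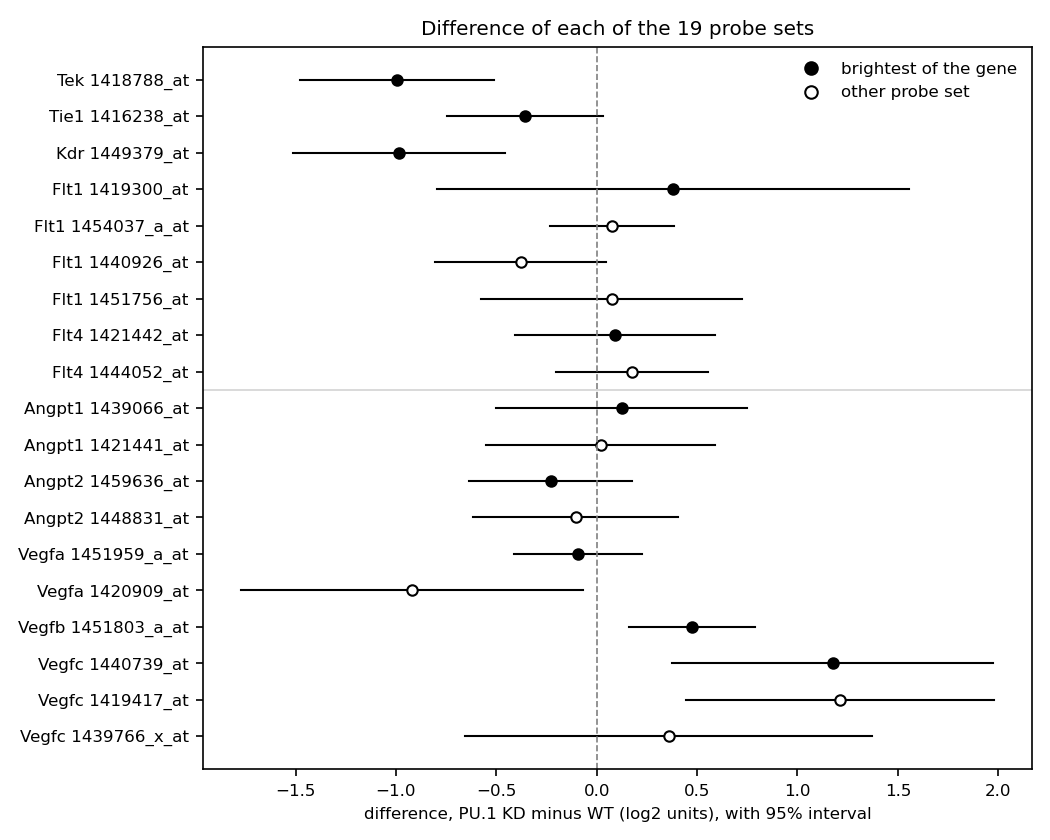
Difference (PU.1 KD minus WT, log2 units) of each of the 19 probe sets with its 95% interval from limma, receptors above the grey line and ligands below it; filled points are the brightest probe set of a gene. The intervals of Tek and Kdr lie below 0, as does that of 1 of the 2 Vegfa probe sets, and those of Vegfb and of 2 of the 3 Vegfc probe sets lie above 0.

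Of the 19 probe sets, 0 passed limma at a Benjamini-Hochberg adjusted p under 0.05, against 0% of all 44991. The adjusted p was 0.458 for Tek, 0.486 for Kdr, 0.555 for Vegfb and 0.565 for Vegfc in limma, and the smallest over all probe sets was 0.171. Before adjustment, 6 of the 19 had a limma p under 0.05, beside 7.11% of all probe sets. Lower in PU.1 KD were 3 of these (Tek, Kdr and the dimmer Vegfa probe set), beside 3.33% of all, and higher were 3 (Vegfb and 2 of Vegfc), beside 3.78%. Groups that did not overlap on the normalised scale were lower in PU.1 KD for 3 probe sets (Tek, Tie1 and Kdr), beside 5.26% of all, and higher for 3 (Vegfb and 2 of Vegfc), beside 7.59%. On the deposited scale 4 were lower, Angpt2 in addition, beside 7.97% of all, and 1 was higher, Vegfb, beside 5.09%. Since the genes were chosen with this comparison known, nothing is read from these counts.

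By role, 3 of the 5 receptor genes had a lower mean in PU.1 KD pools, with a median difference of -0.36, and 3 of the 5 ligand genes had a higher mean, with a median of 0.12. These medians are the values of Tie1 and Angpt1, whose intervals included 0. The median over all 18186 genes was 0.018, with 9704 higher and 8482 lower, and nothing is read from the counts by role. Over the 10 genes the median was -0.0010, with 5 higher and 5 lower.

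**Figure D3:**
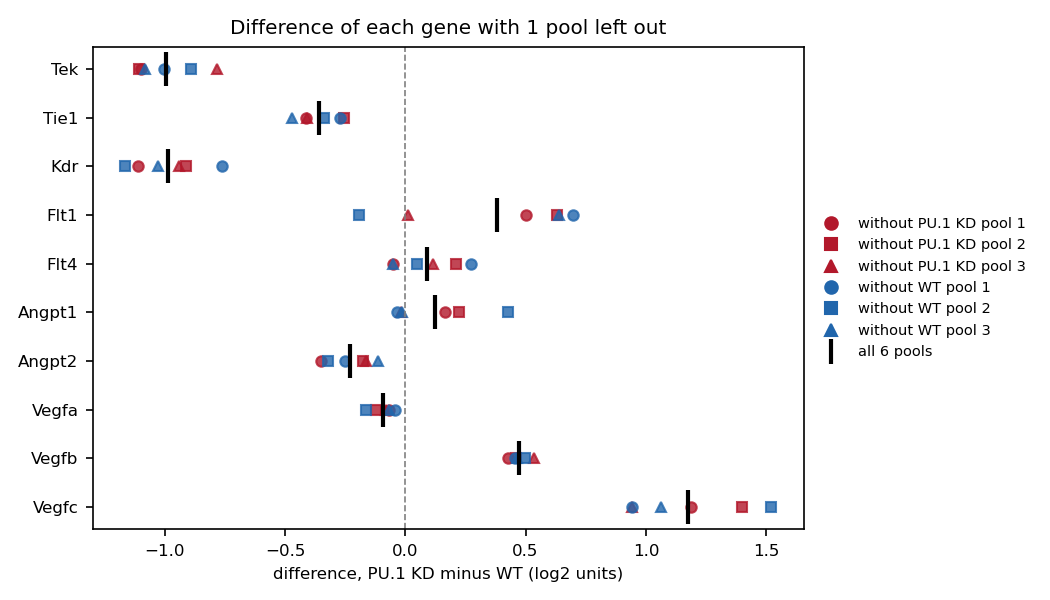
Difference (PU.1 KD minus WT, log2 units) of each gene's brightest probe set with all 6 pools (black bar) and with each pool left out in turn (red, a PU.1 KD pool; blue, a WT pool). Tek runs from -1.11 to -0.78, Kdr from -1.16 to -0.76 and Vegfc from 0.94 to 1.52, while Flt1, Flt4 and Angpt1 fall on both sides of 0.

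Further genes of the 2 pathways were described by 4 lists, each gene by its brightest probe set. Of these lists 0 genes passed the adjusted limma test, as 0% of the 18186 genes did. Before adjustment, 1 of their genes had a p under 0.05, Dok2, beside 7.63% of all genes. Dok2 encodes an adaptor that binds activated Tek. Its intensities were 630, 628 and 808 in PU.1 KD pools, against 533, 599 and 432 in WT pools, with no overlap and a difference of 0.47 (SE 0.16). Among the 15 signalling adaptors, 11 had higher and 4 lower means, with a median of 0.14. Nck1, an adaptor of receptor tyrosine kinases, differed by 0.41 (SE 0.19), and the phosphatase gene Ptpn11 and the adaptor gene Grb2 by -0.29 (SE 0.15) and -0.19 (SE 0.13). The PU.1 KD pools lay below the WT pools for both Ptpn11 and Grb2.

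Among 10 other ligands and co-receptors, 4 had higher and 6 lower means, with a median of -0.15. The placental growth factor gene Pgf, a further ligand of Flt1, was dim, with intensities of 42.2, 38.4 and 38.5 in PU.1 KD pools, against 35.8, 29.1 and 27.6 in WT pools, and differed by 0.30 (SE 0.14). The VEGF co-receptor gene Nrp1 differed by 0.43 (SE 0.38), with overlapping groups. The integrin subunit genes Itgav and Itga5 differed by -0.51 (SE 0.23) and -0.35 (SE 0.16). Of the 8 oxygen-sensing genes, which control Vegfa transcription in low oxygen, 3 had higher and 5 lower means, with a median of -0.12. Epas1, which encodes a hypoxia-inducible factor subunit, differed by 0.34 (SE 0.15) and the prolyl hydroxylase gene Egln2 by 0.17 (SE 0.14). Egln1, another prolyl hydroxylase gene, differed by -0.15 (SE 0.14) and Vhl, whose protein marks hypoxia-inducible factors for degradation, by -0.13 (SE 0.13).

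Of 8 transcription factor genes known for acting on the receptor genes, 2 had higher and 6 lower means, with a median of -0.16. Elf1, an ETS factor known to act on the Tek promoter, differed by 0.073 (SE 0.19), and Lmo2 by 0.0033 (SE 0.15). The ETS factor genes Ets1 and Fli1 differed by -0.33 (SE 0.19) and -0.27 (SE 0.25).

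Tek, Tie1 and Kdr are also expressed by endothelial cells, so markers of that and other cell types were set beside them. Of 15 endothelial markers, all measured, 7 were brighter than the median probe set: Emcn, Eng, Esam, Cldn5, Sox18, Egfl7 and Mmrn2. The rest, Cdh5, Pecam1, Sox17, Plvap, Lyve1, Stab2, Robo4 and Clec14a, were not. The arrays do not show which of the sorted cells gave these signals. In PU.1 KD pools 10 had higher and 5 lower means, with a median of 0.080. Their summed intensity was 4212 to 5021 in PU.1 KD pools, against 2920 to 4808 in WT pools, and 0 markers were at the floor of 1 on any array. Cdh5, the defining endothelial cadherin, had intensities of 40.1, 29.4 and 45.7 in PU.1 KD pools, against 66.5, 46.5 and 37.9 in WT pools, below the median of all probe sets. Sox18 and Eng differed by 0.81 (SE 0.24) and 0.47 (SE 0.17) on the normalised log2 scale. The 5 markers with lower means were Robo4 at -0.41 (SE 0.31), Plvap at -0.29 (SE 0.28), Sox17 at -0.24 (SE 0.19), Cdh5 at -0.22 (SE 0.20) and Esam at -0.20 (SE 0.21). The sum of the list was higher in each PU.1 KD pool than in WT pools 1 and 3, while WT pool 2, at 4808, lay among the PU.1 KD pools. Egfl7 was the largest part of each sum, with intensities of 2367, 2169 and 2787 in PU.1 KD pools, against 1069, 2473 and 1508 in WT pools. It put the pools in the same order as the sum, so the sum says little of the other markers. Tek, Tie1 and Kdr had lower values in each PU.1 KD pool than in WT pools 1 and 3. The part of endothelial cells in these differences was not tested.

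Megakaryocytes make Vegfa, Vegfc and Angpt1. Of 12 of their markers, 11 were measured, 10 with a mean above the median, and 10 of the 11 had lower means in PU.1 KD pools, with a median of -1.32. Their summed intensity was 2768 to 8673 in PU.1 KD pools, against 8240 to 17197 in WT pools. The list mean was 8.72, 6.93 and 8.51 in PU.1 KD pools 1, 2 and 3, against 9.81, 8.61 and 9.66 in WT pools 1, 2 and 3. WT pool 2 was the lowest WT pool for this list, for Kdr and for both Vegfa probe sets, whereas for Vegfc and Angpt1 it was the highest WT pool. Among the PU.1 KD pools, pool 2 was the lowest for this list, for Kdr, for Vegfc and for the dimmer Vegfa probe set. It was the highest PU.1 KD pool for the brighter Vegfa probe set. The part of these cells in the differences of the ligands and of Kdr was not tested.

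Of 8 stromal markers, 4 had a mean above the median. In PU.1 KD pools 4 were higher and 4 lower, with a median of -0.0049. Pdgfrb differed by 2.00 (SE 0.37) without overlap. Its intensities were 496, 527 and 871 in PU.1 KD pools, against 90.65, 289 and 125 in WT pools. The furthest of the lower markers was Lepr at -0.37 (SE 0.23). Summed intensities were 968 to 1997 in PU.1 KD pools, against 703 to 2215 in WT pools. Col1a1, at 90.25 to 865 and 87.8 to 1533, was a large part of the spread of these sums. The B lymphoid list had 5 of 6 genes measured, 3 with a mean above the median probe set. It had sums of 405 to 823 in PU.1 KD pools, against 950 to 1658 in WT pools, and a median of -0.78. The T lymphoid list, with 2 of 5 means above the median probe set, had sums of 364 to 441 in PU.1 KD pools. In WT pools they were 313 to 368, and the median difference was 0.15. The erythroid list, with 5 of 6 measured, had sums of 2741, 7507 and 2525 in PU.1 KD pools 1, 2 and 3. In WT pools 1, 2 and 3 they were 4391, 1712 and 4004, and the median difference was 0.22. The 8 neutrophil genes summed to 35730 to 46564 in PU.1 KD pools, against 16805 to 44715 in WT pools, with a median of 0.48. The 10 measured stem cell genes summed to 9075 to 11617 in PU.1 KD pools, against 8297 to 16913 in WT pools, with a median of -0.13. In PU.1 KD pools 4 had higher and 6 lower means. Furthest on the lower side were Prdm16 at -1.31 (SE 0.32), without overlap, and Mecom at -0.82 (SE 0.34). On the higher side it was Fgd5 at 0.43 (SE 0.23). In none of these lists was a marker at the floor of 1, which does not show that a marker was detected. Their part in the differences of the Tie and VEGF genes was not tested.

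**Figure D4:**
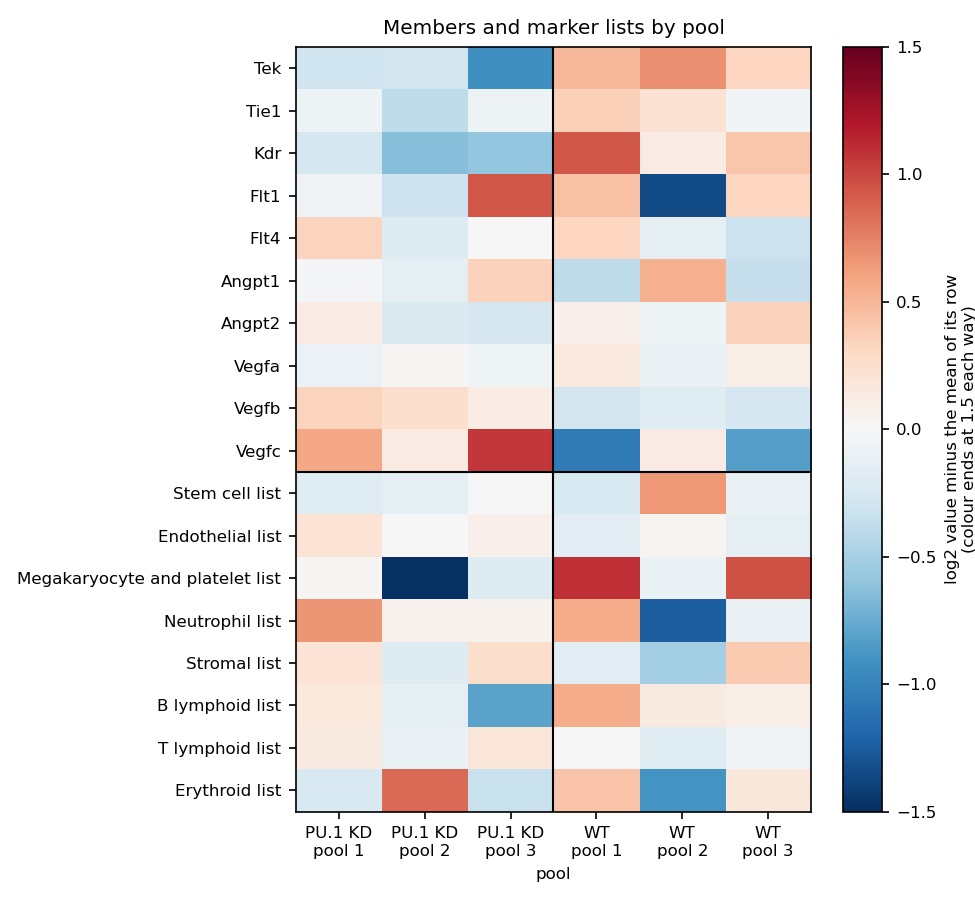
Log2 values of the 10 genes (upper rows) and mean log2 values of 8 marker lists (lower rows) in each pool, each row centred on its own mean over the 6 pools, with red above and blue below that mean. The stem cell list is highest and the neutrophil list lowest in WT pool 2, the megakaryocyte and platelet list is lowest in PU.1 KD pool 2, and Angpt1 is highest in WT pool 2 while Vegfc is highest in PU.1 KD pool 3.

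The likeness of other genes to Tek was measured by the root mean square distance between centred log2 values over the 6 pools, among 19199 probe sets with 1 gene symbol and a mean above the median. Closest were 2 probe sets of Rgs2, which encodes a regulator of G protein signalling, at 0.094 and 0.11 log2 units. They were followed by Grk3 (0.12), Matk (0.12) and Myo5a (0.13). These encode a kinase that phosphorylates G protein-coupled receptors, a kinase related to Csk, and a myosin. On its closest probe set, Rgs2 had intensities of 616, 690 and 379 in PU.1 KD pools, against 1063, 1316 and 928 in WT pools. Like Tek, it was lowest in PU.1 KD pool 3 and highest in WT pool 2. Since the 5 probe sets were picked for their likeness to Tek, this order follows from the choice. Their adjusted p in limma ran from 0.382 (Myo5a) to 0.555 (Rgs2). Among the family, Kdr (0.36) and Tie1 (0.43) were nearest to Tek, and Flt1 (1.12) and Vegfc (1.22) were farthest.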

How the data were processed

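RNA of sorted HSC was measured on 6 single-channel arrays, 3 PU.1 KD and 3 WT, each a pool of 3 animals. The deposited values are intensities that the authors had processed, linear and in part below 0; the sources used here name no software, background correction or scaling for them, and no detection calls were used. The members and gene lists were chosen with earlier results of these data known.

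Intensities below 1 were raised to 1, 16 was added, and the log2 was used. Array medians then differed by 0.143, above a limit of 0.1, so arrays were quantile normalised. All 44991 probe sets entered 1 two-sided limma fit (lmFit, eBayes; limma 3.58.1, R 4.3.3), and p-values were adjusted over all of them by Benjamini-Hochberg; the code was checked on simulated data. The statistics had 7.81 degrees of freedom, and the number of arrays limits the precision. Pools of separate animals were the replicates. Figures used Python 3.11.15 and matplotlib 3.10.9.

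Names came from the platform annotation: 34921 probe sets had 1 symbol, 930 several and 9140 none. All 10 members matched the RefSeq gene table of GRCm38.p6, whose promoter sequences are shown. A gene is given by its probe set of highest mean. Named were all member probe sets, up to 2 genes per direction of smallest p in each of 4 pathway lists, Spi1, and the 5 probe sets most like Tek; marker genes were named after their values were seen. The comparison was repeated without normalisation, with median centring, with a pseudocount of 1 or 64, with only probe sets above the 40th or the 60th percentile, with trend or robust eBayes, with array weights, with a replicate block, with a gene's probe sets averaged, and without each array in turn.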

Additional observations from a re-analysis of the deposited data

How the results depend on the processing

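Under the 17 alternatives the Tek difference ran from -1.12 to -0.73, Kdr from -1.16 to -0.76, Tie1 from -0.47 to -0.25, Angpt2 from -0.35 to -0.11, Vegfa from -0.51 to -0.044, Vegfb from 0.37 to 0.54 and Vegfc from 0.92 to 1.52, each with 1 sign throughout. Tek, Flt1 and Flt4 fell below 1 or both filters on dim probe sets and have no value there. With 1 array left out, Angpt1 ran from -0.035 to 0.43, Flt1 from -0.19 to 0.70 and Flt4 from -0.053 to 0.27; the cause was not tested. The median of the 10 genes was 0.0090 with a pseudocount of 1. In none of the settings did a member probe set pass the adjusted limma threshold. Over all probe sets, 0 to 2 passed with 1 array left out (2 without WT pool 2), and 2094 and 1475 had an unadjusted p under 0.05 above the 40th and 60th percentile, where fewer probe sets were tested. With the values as deposited, the median difference of all probe sets was -0.048 in place of 0.0090.

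Whether the replicate numbers of the labels pair the samples was not settled. The deviations from group means of same-numbered pools correlated at 0.18, 0.061 and -0.039. Those of pools with unlike numbers correlated at -0.20 to 0.15. So few values cannot exclude a pairing. With the replicate block 0 probe sets passed, and 6 member probe sets had an unadjusted limma p under 0.05. In this balanced design the block cannot move a difference, but it changed the SE. The SE of Kdr was 0.17 in place of 0.23 and that of Flt1 0.30 in place of 0.51. The SE of Vegfb rose from 0.14 to 0.16. Without detection calls, signals of the dim Flt1 and Flt4 probe sets could not be told from background.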
